A study of Mus musculus with 18 samples.

Results

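The early response of wild-type (WT) mouse monocytes to the cytokine GM-CSF was followed by RNA-seq, as the difference between cells taken before GM-CSF (day 0) and cells grown with it for 3 days (day 3). The 6 WT libraries of these days, 3 per day, were drawn from 18 libraries in the series. Every gene whose mean was above 2 RPKM (reads per kilobase of gene, scaled to library size) in either group was kept, which left 9938 of the 20298 genes in the table. Of these, 8489 were above 2 RPKM on both days, 600 on day 0 alone and 849 on day 3 alone. All mice were C57BL/6, and the cells were labelled Ly6C+ CCR2+ monocytes, enriched from bone marrow by negative selection and either left untreated or given 20 ng/mL GM-CSF. For comparison, the same days were read in double knockin (DKI) mice, whose N-domain mutations in *Stat5a* and *Stat5b* let STAT5 form dimers but not tetramers, and WT cells were also read on day 6 of GM-CSF. The day 3 cells had been plated in serum-containing medium as well as given GM-CSF, and no culture without GM-CSF was analysed here, so time in culture and cytokine cannot be told apart. The groups were stated to be 3 independent experiments, although the library name of day 3 replicate 1 carries another year than those of the other WT libraries of these days, and p-values measure the spread between these libraries.

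GM-CSF signals through a receptor made of a specific alpha chain and a shared beta chain. The receptor activates the kinase JAK2, which phosphorylates STAT5A and STAT5B, and these factors turn on their own inhibitors (*Cish* and the *Socs* genes) together with survival and cell cycle genes. Ly6C+ monocytes cultured with GM-CSF lose monocyte features and become monocyte-derived dendritic cells and macrophages, which take up antigen, carry MHC class II and secrete chemokines.

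The labels gave liver as the tissue, whereas the design text and the methods of the study gave bone marrow. None of 13 hepatocyte genes, *Alb*, *Apoa1* and *Ttr* among them, reached 2 RPKM, and their summed level was 0.338 to 0.457 RPKM on day 0 and 0.267 to 0.402 RPKM on day 3. The 30 measured classical monocyte genes together reached 18453 to 28188 RPKM on day 0. Library totals recovered from the values were 32563043 to 42317549 reads on day 0 and 32160391 to 37627900 on day 3, so that 3 reads on a gene of 1 kb corresponded to less than 0.1 RPKM. In bulk RNA of this kind, fewer cells of a type and less RNA per cell cannot be told apart.

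Nearly as many genes rose as fell over the first 3 days. Of the 4283 genes called in limma (43.1%; adjusted p below 0.05, change of more than 1.5-fold), 2013 genes were higher on day 3 (20.3% of those fitted) and 2270 were lower (22.8%). Many changes were large: 2748 called genes differed at least 2-fold, 511 rose at least 4-fold and 457 fell at least 4-fold. The 2 days were fully apart for 2000 of the 2013 genes called higher and 2259 of the 2270 called lower, where 28.8% of all fitted genes were apart in the upward and 32.2% in the downward direction. The median over all fitted genes was -0.05 on the log2(RPKM + 1) scale, and rescaling RPKM to a common sum in each library, with immunoglobulin segments left out, moved it to -0.18. The balance of rises and falls turned with the scaling. After that rescaling 1752 genes were higher and 2720 lower, and with each library centred on its median 2267 were higher and 2000 lower. The two-sided limma test on a log scale with 1 RPKM added understates the change of genes that were near 0 on either day, so RPKM values are given beside each difference.

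The 10 genes that rose furthest, leaving out immunoglobulin segments and genes on lists of other cell types, were *Ccl17*, *Mmp12*, *Plet1*, *Ccl22*, *H2-Eb1*, *Itgax*, *H2-Ab1*, *Mgl2*, *H2-Aa* and *Cd74*. *Ccl17* (gene 20295, chr8:94809380-94812038 in GRCm38.p6) encodes a chemokine that attracts CCR4+ T cells. It stood at 0.0463, 0.184 and 0.717 RPKM in the day 0 libraries, on 1 to 12 reads, and at 3473, 5758 and 5500 RPKM on day 3, on 62968 to 111360 reads. The difference was 11.86 ± 0.27 (SE) on the log2(RPKM + 1) scale, with an adjusted p of 2.61e-06. *Ccl22* (chr8:94745684-94751388), a neighboring chemokine gene whose product binds the same receptor, went from 0.092, 0.365 and 0.22 RPKM to 657, 2781 and 412 RPKM. The day 3 libraries therefore differed among themselves far more for *Ccl22* than for *Ccl17*, with replicate 2 the highest for both. *Mmp12*, the macrophage elastase, rose from 2.78, 0.295 and 0.809 RPKM to 869, 2884 and 3196 RPKM, where replicate 1 of day 3 was the lowest. *Plet1*, which encodes a membrane protein, rose from 0.412, 0.064 and 0.183 RPKM to 885, 1135 and 1337 RPKM with an SE of 0.20 around a difference of 9.83. *Itgax*, the CD11c integrin chain used to recognize dendritic cells, rose from 0.715, 0.71 and 0.549 RPKM to 411, 630 and 718 RPKM.

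Of the 10 genes that fell furthest, 9 are described, namely *Plac8*, *Nr4a1*, *Ly6a2*, *Ly6c2*, *Ptgs2*, *Fn1*, *Iqgap2*, *Id3* and *Ms4a6c*. *Plac8* (chr5:100551589-100572253), a gene of marrow monocytes and granulocytes, fell from 1168, 1559 and 1772 RPKM to 1.91, 19.7 and 0.983 RPKM, a difference of -8.23 ± 0.81. *Nr4a1*, the orphan nuclear receptor NUR77, fell from 134, 428 and 737 RPKM to 1.4, 0.504 and 0.816 RPKM. Day 3 replicate 2 held the highest remaining *Plac8*, *Ly6a2*, *Ly6c2* and *Id3* of its group. *Ly6c2* (chr15:75108161-75112066), one of the genes of the Ly6C antigen used to label the cells, fell from 953, 1624 and 1762 RPKM to 11.2, 39.8 and 17.1 RPKM. *Ly6c2* has a closely similar neighbor, *Ly6c1*, between which counting may have split reads. *Ptgs2*, the inducible cyclooxygenase, fell from 52.2, 84.2 and 68.2 RPKM to 0.642, 0.231 and 0.255 RPKM, and *Fn1*, fibronectin, from 985, 1124 and 1172 RPKM to 50.9, 15.6 and 12.7 RPKM.

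**Figure D1:**
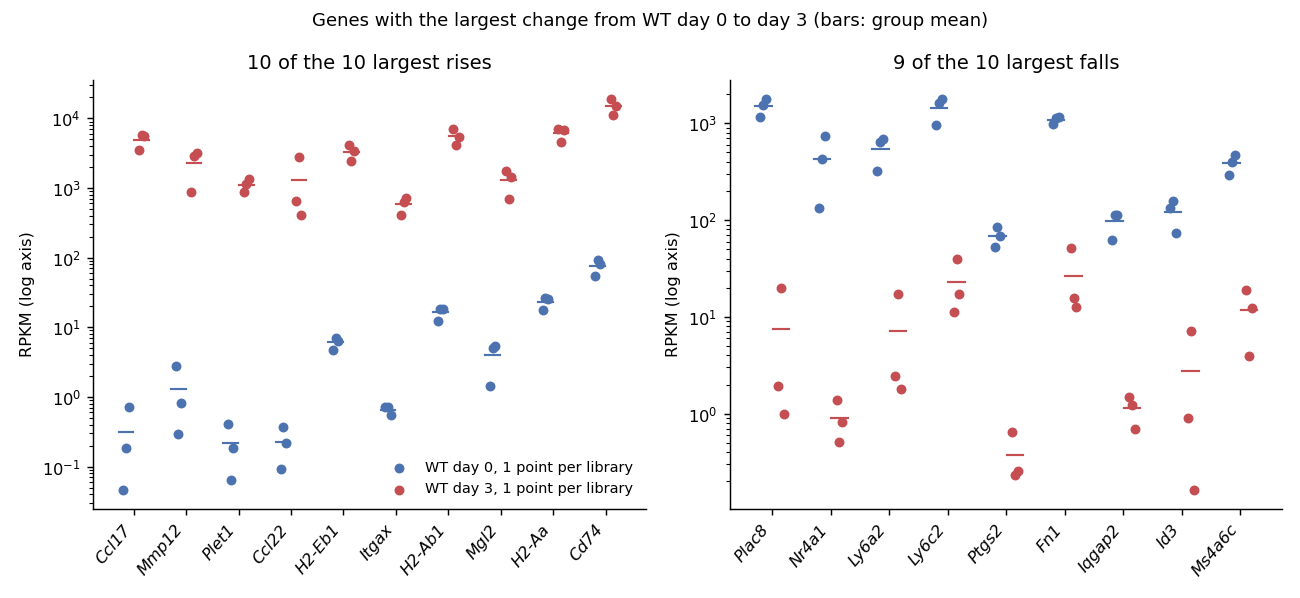
RPKM on a log axis for the 10 genes with the largest rise (left) and 9 of the 10 with the largest fall (right), with 1 point per library, WT day 0 in blue, WT day 3 in red and a bar at each group mean. The day 0 and day 3 points are apart for all 19 genes because this was a condition of their choice. The spread within a group is widest for low values, as for *Ccl17* on day 0 at 0.0463 to 0.717 RPKM.

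In the GM-CSF receptor and JAK-STAT5 list, 13 of 26 fitted genes rose and 6 fell, against 20.3% and 22.8% of all fitted genes, and the median difference was 0.99. *Csf2ra*, the GM-CSF-specific alpha chain, stood at 132, 174 and 164 RPKM before GM-CSF and 224, 186 and 199 RPKM after, which did not pass (0.38 ± 0.16, adjusted p = 0.0954). *Csf2rb*, the shared beta chain, rose from 141, 160 and 70.6 RPKM to 575, 721 and 725 RPKM. *Csf2rb2*, a close copy of *Csf2rb* that serves another cytokine receptor, rose from 37.9, 30.7 and 17.6 RPKM to 368, 420 and 450 RPKM, and reads may be shared between the pair. *Jak2* rose in all libraries, from 64.2, 47 and 38.4 RPKM to 289, 321 and 294 RPKM. Of the STAT5 genes, *Stat5a* rose from 13.4, 13.1 and 17.1 RPKM to 30.2, 58 and 39.7 RPKM, whereas *Stat5b* stood at 25.6, 28.7 and 38.8 RPKM and then 17.1, 25.2 and 22.8 RPKM, without passing (-0.49 ± 0.21, adjusted p = 0.0948) except after rescaling without immunoglobulin segments (-0.65). The differences between *Stat5a* and *Stat5b* and between *Csf2ra* and *Csf2rb* were not tested.

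The feedback inhibitors of the pathway were among its largest rises. *Cish*, whose protein binds the phosphorylated receptor, went from 1.63, 3.66 and 0.497 RPKM to 200, 176 and 175 RPKM (6.13 ± 0.38). *Socs2* rose from 0.0794, 0.131 and 0.0569 RPKM, on 5 to 15 reads, to 103, 121 and 82 RPKM, and *Socs1* from 1.23, 1.07 and 1.36 RPKM to 60.6, 90.5 and 79.3 RPKM. *Socs3*, more closely tied to STAT3, rose less, from 20, 20.3 and 10.7 RPKM to 51.2, 38.8 and 60.3 RPKM. *Il2ra*, the CD25 chain and a classical STAT5 target in T cells, rose from 0.107, 0.128 and 0.0624 RPKM to 173, 75 and 82.4 RPKM. The D-type cyclins *Ccnd1* and *Ccnd2* rose as well, the latter from 1.04, 2.9 and 3.47 RPKM to 111.6, 213 and 108 RPKM, and so did the survival genes *Bcl2l1* and *Bcl2*. Another survival gene, *Mcl1*, fell from 379, 379 and 445 RPKM to 189, 212 and 170 RPKM. The repressor *Bcl6* fell from 57.7, 73 and 54.2 RPKM to 27.5, 16.9 and 23.8 RPKM. *Pim1*, a kinase gene that STAT5 induces in other cells, fell from 286, 199 and 347 RPKM to 177, 140 and 181 RPKM, at an adjusted p of 0.0422, a call that was lost in 9 of 17 alternatives, among them all 18 libraries in 1 fit and the fits without any single library other than day 0 replicate 2. The kinase *Lyn* and the phosphatase *Ptpn6* also fell, by 1.60 and 1.32 on the log2 scale.

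**Figure D2:**
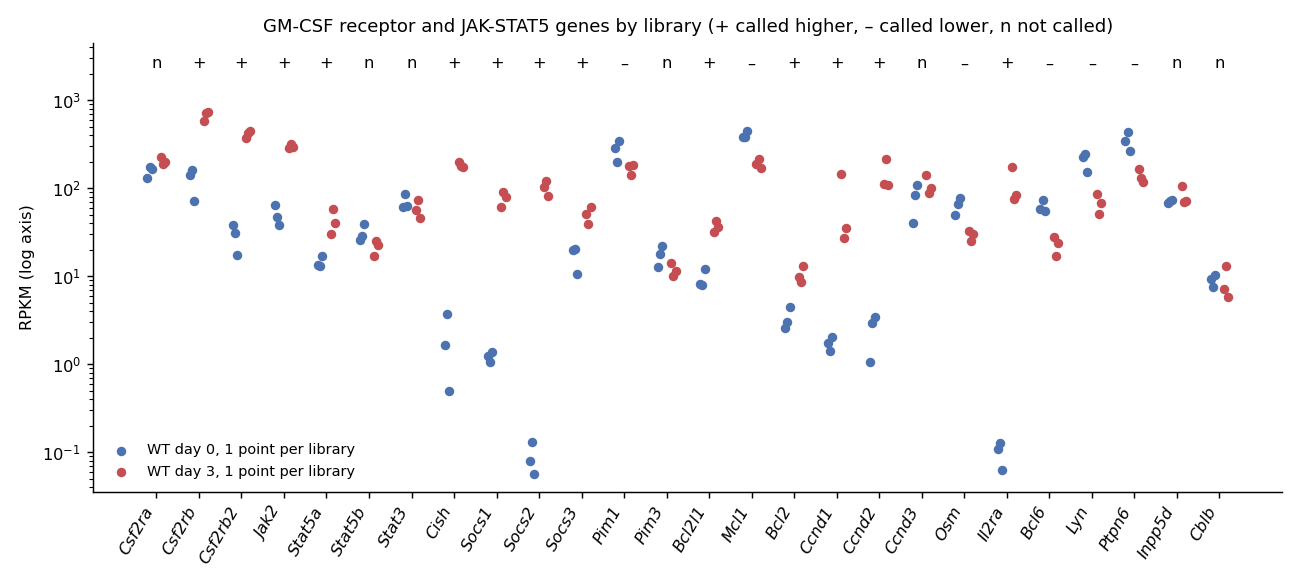
RPKM on a log axis of the 26 fitted genes of the GM-CSF receptor and JAK-STAT5 list, with 1 point per library, WT day 0 in blue and WT day 3 in red, and the call of each gene above it. The inhibitors *Cish*, *Socs1* and *Socs2* lie between 0.0569 and 3.66 RPKM before GM-CSF and between 60.6 and 200 RPKM after, while the points of *Stat3* overlap.

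STAT5 binds DNA at the palindrome TTCNNNGAA, which reads the same on both strands. The letters were looked for in 300-base windows, from 250 bases before to 50 after each RefSeq start of GRCm38.p6, and occurred in 8.30% of all 32851 windows and for 9.55% of 27025 genes. Among fitted genes with a window, 8.72% of 1595 called higher, 8.15% of 1755 called lower and 8.08% of 4577 not called held the letters, shares close to the 8.23% of all 7927 fitted genes with a window. In the JAK-STAT5 list, 4 of 20 genes with a window held them, namely *Bcl6*, *Cish*, *Csf2rb2* and *Socs3*. The windows of *Cish* and *Bcl6*, which changed in opposite directions, are shown with those of *Lta* and *Ccl17*, which rose, because they carry the letters near an annotated start of genes whose change is described here. Capitals mark the letters TTCNNNGAA, and each line reads 5′ to 3′ toward the gene. For *Cish* the 30 bases around the annotated start hold 2 copies that are 2 bases apart, and the other lines give the 250 bases before an annotated transcript start. For *Ccl17*, *Bcl6* and *Lta* that start lies inside the span of the gene, and for *Bcl6* the window at the outer start, not shown, holds 1 copy. A match describes the sequence and does not show that STAT5 was bound.
Cish, chr9:107296654-107296683, plus strand: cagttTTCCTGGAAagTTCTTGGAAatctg
Bcl6, chr16:23981284-23981533, minus strand: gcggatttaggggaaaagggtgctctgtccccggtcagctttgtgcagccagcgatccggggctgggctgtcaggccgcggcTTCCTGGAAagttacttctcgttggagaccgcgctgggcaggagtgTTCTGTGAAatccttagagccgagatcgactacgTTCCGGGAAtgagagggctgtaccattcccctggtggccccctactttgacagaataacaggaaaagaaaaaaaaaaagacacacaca
Lta, chr17:35205352-35205601, minus strand: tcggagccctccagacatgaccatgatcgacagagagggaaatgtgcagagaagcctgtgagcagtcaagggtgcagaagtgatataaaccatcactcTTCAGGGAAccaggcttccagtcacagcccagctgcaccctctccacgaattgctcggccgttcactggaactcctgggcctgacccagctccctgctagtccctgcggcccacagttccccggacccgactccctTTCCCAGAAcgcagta
Ccl17, chr8:94810203-94810452, plus strand: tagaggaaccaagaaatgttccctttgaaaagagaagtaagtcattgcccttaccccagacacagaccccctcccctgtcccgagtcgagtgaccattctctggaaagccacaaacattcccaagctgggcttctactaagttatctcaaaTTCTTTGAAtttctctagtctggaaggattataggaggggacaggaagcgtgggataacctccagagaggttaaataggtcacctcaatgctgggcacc

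Genes on the classical monocyte list, which also holds genes of non-classical monocytes such as *Nr4a1* and *Cx3cr1*, fell as a group. Of 30 fitted, 23 fell and 2 rose, with a median difference of -3.97, and their summed level dropped to 2327 to 4292 RPKM on day 3. Beside *Ly6c2* and *Plac8*, the falls took in *Chil3*, a chitinase-like lectin, from 1443, 1481 and 823 RPKM to 11.1, 282 and 30.7 RPKM, and *F13a1*, a clotting factor subunit, from 703, 1068 and 1072 RPKM to 54.6, 54.3 and 30.4 RPKM. *Lyz2*, the lysozyme gene that every myeloid cell uses, fell less, from 8768, 14266 and 12573 RPKM to 2321, 732 and 2630 RPKM. *Cx3cr1*, the fractalkine receptor, fell from 18.7, 62.5 and 50 RPKM to 0.631, 0.157 and 0.183 RPKM. *Ccr2*, the chemokine receptor that labels these cells, stood at 182, 333 and 515 RPKM on day 0 and 180, 83 and 217 RPKM on day 3, so the groups overlapped and the difference did not pass (-1.08 ± 0.48, adjusted p = 0.0983), although it was called lower without day 0 replicate 1 (-1.48). The M-CSF receptor *Csf1r*, at 249, 320 and 248 RPKM and then 421, 272 and 381 RPKM, did not pass either (0.38 ± 0.21, adjusted p = 0.182). The 2 members that rose were *Itgam*, the CD11b chain, from 200, 210 and 161 RPKM to 525, 364 and 493 RPKM, and *Mcub*, a subunit of the mitochondrial calcium channel, whose call was lost in 9 of 17 alternatives, among them the replicate block and the fits without day 0 replicate 1 or 3 or day 3 replicate 1 or 3.

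Dendritic cell genes rose. Of 22 fitted, 17 rose and 2 fell, with a median difference of 3.77, and the summed level of the list went from 132 to 151 RPKM on day 0 to 8017 to 11113 RPKM on day 3. *Ccr7*, the receptor that guides dendritic cells to lymph nodes, rose from 0.554, 0.347 and 0.358 RPKM to 118, 229 and 60.8 RPKM. *Fscn1*, which bundles actin in dendrites, rose from 0.366, 0.257 and 0.173 RPKM to 106.05, 271 and 26.7 RPKM. As with *Ccl22*, *Ccr7* and *Fscn1* were highest in day 3 replicate 2 and lowest in replicate 3. *Cd209a*, the DC-SIGN lectin of monocyte-derived dendritic cells, ran the other way, from 2, 8.31 and 10.4 RPKM to 523, 50.3 and 163 RPKM with replicate 1 the highest. *Zbtb46*, a transcription factor that marks the classical dendritic lineage, rose from 0.349, 0.305 and 0.184 RPKM to 15, 15.7 and 9.73 RPKM. *Itgae*, the CD103 chain, rose from 0.0572, 0.0672 and 0.0739 RPKM to 47.1, 39.9 and 35 RPKM. The 2 that fell were *Flt3*, the receptor that marrow progenitors of dendritic cells depend on, from 4.62, 6.82 and 5.37 RPKM to 0.457, 1.87 and 0.918 RPKM, and *Btla*, an inhibitory receptor. *Clec9a* and *Xcr1*, which mark cross-presenting dendritic cells, and *Siglech*, of the plasmacytoid type, were below the 2 RPKM limit on both days.

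Of the 15 genes for antigen presentation by MHC class II, 14 rose and none fell, with a median difference of 3.47. Their summed level went from 1373 to 1788 RPKM on day 0 to 26427 to 41843 RPKM on day 3. *H2-Aa* and *H2-Ab1*, the chains of the I-A molecule, rose from 17.5, 26.2 and 25.7 RPKM to 7137, 4588 and 6900 RPKM and from 12.4, 18.2 and 18.4 RPKM to 6963, 4088 and 5428 RPKM. *Cd74*, the invariant chain that escorts them, rose from 55, 92.5 and 80.9 RPKM to 18810, 11360 and 15147 RPKM, and in all 3 day 3 libraries it was above the I-A chains. *H2-Aa*, *H2-Ab1* and *Cd74* were lowest on day 3 in replicate 2. *Ciita*, the coactivator that switches class II genes on, rose from 0.104, 0.141 and 0.523 RPKM to 150, 99 and 90.2 RPKM (6.48 ± 0.24, adjusted p = 1.13e-05). The peptide-loading genes *H2-DMa*, *H2-DMb1* and *H2-DMb2* and the loading antagonists *H2-Oa* and *H2-Ob* all passed, with differences of 2.92 to 5.98. *Ctss*, the protease that trims the invariant chain, rose from 663, 762 and 723 RPKM to 1747, 2100 and 2401 RPKM. *Ifi30*, the thiol reductase of the pathway, did not pass at 473, 586 and 661 RPKM and then 795, 669 and 649 RPKM.

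Among 12 fitted genes of co-stimulation and checkpoint ligands, 4 rose and 2 fell (1 without day 0 replicate 1 or day 3 replicate 3), against 20.3% and 22.8% of all fitted genes. *Pdcd1lg2*, which encodes the PD-1 ligand PD-L2, rose from 0.425, 0.104 and 0.045 RPKM to 109, 144 and 165.8 RPKM, and *Cd274*, which encodes PD-L1, from 13.1, 5.95 and 5.43 RPKM to 41.4, 132 and 81 RPKM. *Tnfsf4*, the OX40 ligand, rose from 0.0444, 0.0147 and 0.0191 RPKM to 16.6, 55.2 and 19.4 RPKM. Of the CD28 ligands, *Cd80* rose from 23.6, 37.5 and 12.3 RPKM to 57.9, 96.2 and 60.8 RPKM, whereas *Cd86* stood at 121, 102 and 23.1 RPKM and then 67.2, 81.7 and 38.5 RPKM (-0.15 ± 0.62, adjusted p = 0.858), and the difference between them was not tested. *Cd86* was already low in day 0 replicate 3, and its sign turned without day 0 replicate 1 (0.28), day 0 replicate 2 (0.16) or day 3 replicate 3 (0.16). *Vsir*, the checkpoint protein VISTA, fell from 87.2, 117 and 164 RPKM to 30.4, 16.9 and 36.9 RPKM.

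Some macrophage genes rose. Of 24 fitted, 11 rose, 2 fell and 11 were not called, where 20.3% of all fitted genes rose and 22.8% fell. The median difference was 1.58, with a summed level of 892 to 1280 RPKM on day 0 and 2681 to 3792 RPKM on day 3. Fitted by voom on recovered reads, 7 of them rose. *Axl*, a receptor for dying cells, rose from 4.04, 7.36 and 4.69 RPKM to 259, 162 and 299 RPKM. *Cd36*, a scavenger and fatty acid receptor, rose from 4.64, 8.45 and 2.02 RPKM to 63.5, 303 and 398 RPKM, and *Adgre1*, which encodes F4/80, from 92.6, 73.1 and 49.6 RPKM to 294, 165 and 360 RPKM. The complement genes varied most between the day 3 libraries: *C1qa* went from 0.154, 0.218 and 0.142 RPKM to 187, 5.43 and 37.2 RPKM and *C1qc* from 0.181, 0.247 and 0.233 RPKM to 271, 12.2 and 96.3 RPKM, with replicate 1 the highest and replicate 2 the lowest of both. Their calls were lost in the voom fit. *Apoe*, the lipid carrier of macrophages, fell from 122, 232 and 138 RPKM to 30.5, 3.23 and 1.94 RPKM, and *Fcgr4*, an activating Fc receptor, from 3.86, 6.56 and 5.5 RPKM to 0.794, 0.829 and 0.721 RPKM, a call lost with all 18 libraries in 1 fit. The mannose receptor *Mrc1*, at 1.42, 3.3 and 4.38 RPKM and then 48.2, 4.47 and 13.3 RPKM, did not pass (adjusted p = 0.0605), and neither did *Cd68*.

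Among 52 fitted myeloid transcription factors, 17 rose and 11 fell, against 20.3% and 22.8% of all fitted genes, with a median of -0.15. *Irf4*, required for dendritic cells that present to CD4+ T cells, rose from 3.09, 2.56 and 5.31 RPKM to 82.8, 142 and 120 RPKM. *Irf8*, a related factor of monocyte and dendritic cell commitment, stood at 54, 90.4 and 184 RPKM and then 29.2, 65 and 31.2 RPKM, and did not pass (-1.29 ± 0.49, adjusted p = 0.0643). *Irf8* was called lower after rescaling without immunoglobulin segments (-1.44), without day 0 replicate 1 (-1.70) and without day 3 replicate 2 (-1.65). *Vdr*, the vitamin D receptor, rose from 1.71, 2.01 and 2.14 RPKM to 40.6, 57.1 and 38.1 RPKM. *Batf3* rose from 0.301, 0.73 and 2.16 RPKM to 13, 35.5 and 26.8 RPKM, *Mycl* from 0.217, 0.243 and 0.675 RPKM to 20.7, 14.5 and 8.69 RPKM, and *Id2* from 43.8, 56.3 and 81.6 RPKM to 513, 521 and 339 RPKM. *Batf3*, *Mycl* and *Id2* are all used by dendritic cells, in development or in T-cell priming. Of the falls, the nuclear receptor *Nr4a2* went from 16.8, 79.1 and 36.2 RPKM to 1.75, 1.34 and 0.418 RPKM, *Cebpb* from 222, 641 and 308 RPKM to 23.2, 79.1 and 85.5 RPKM and *Zeb2* from 197, 126 and 78.7 RPKM to 24.9, 23 and 30.2 RPKM. *Spi1*, which encodes PU.1 and which all myeloid cells need, was at 385, 371 and 306 RPKM and then 413, 309 and 338 RPKM, a difference of -0.01 ± 0.18.

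Of 20 fitted chemokines, 7 rose and 5 fell, against 20.3% and 22.8% of all fitted genes, and the summed level went from 1022 to 1919 RPKM to 5335 to 11707 RPKM, most of it *Ccl17* and *Ccl22*. *Ccl5*, which attracts T cells and monocytes, rose from 2.01, 3.38 and 2.14 RPKM to 102, 281 and 51.3 RPKM, and the neutrophil attractant *Cxcl3* from 1.55, 2.12 and 0.333 RPKM to 19.2, 236 and 63.8 RPKM. Another neutrophil attractant, *Cxcl2*, fell from 140, 55.4 and 130 RPKM to 8.72, 9.25 and 5.71 RPKM. The interferon-induced *Cxcl10* fell from 37.2, 59.9 and 57.1 RPKM to 5.64, 0.314 and 0.904 RPKM, and the monocyte attractant *Ccl2* from 94.6, 80.9 and 329 RPKM to 27.9, 45.3 and 11.1 RPKM. *Ccl2* lost its call under the replicate block and without day 3 replicate 3.

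Among 16 fitted chemoattractant receptors, 5 rose and 5 fell, where 3 fell without day 3 replicate 1 or 2, and the shares of all fitted genes were 20.3% and 22.8%. The complement receptor *C3ar1* rose from 9.21, 6.52 and 1.51 RPKM to 43.2, 37.3 and 59.8 RPKM. *Cxcr4*, which retains cells in the marrow, fell from 369, 266 and 431 RPKM to 10.6, 26.2 and 15.5 RPKM. *C5ar1*, another complement receptor, fell from 60.5, 41.6 and 13.1 RPKM to 11.2, 6.77 and 11 RPKM, at an adjusted p of 0.035, a call that was lost in 10 of 17 alternatives, among them median centring and the fits without any single library other than day 0 replicate 3.

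Of 20 fitted cytokine genes, 6 rose and 6 fell, against 20.3% and 22.8% of all fitted genes. The lymphotoxin genes *Lta* and *Ltb*, which lie in the same cluster on chromosome 17, both rose, *Lta* from 0.189, 0.137 and 0.0222 RPKM to 27, 39.7 and 20.6 RPKM and *Ltb* from 1.56, 1.19 and 1.07 RPKM to 30.4, 31.2 and 32.2 RPKM. *Tnf*, the gene of the same cluster between them, fell from 189, 95.8 and 253 RPKM to 23.2, 37.5 and 34.5 RPKM. The inflammatory cytokines *Il1b*, from 122, 333 and 263 RPKM to 25.9, 27.1 and 11 RPKM, and *Il6*, from 27.4, 18.3 and 6.87 RPKM to 1.38, 1.96 and 0.572 RPKM, fell as well. The platelet-derived growth factor genes *Pdgfa* and *Pdgfb* rose by 3.45 and 2.54.

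Of 22 C-type lectin and scavenger receptor genes, 5 rose and 5 fell, shares near the 20.3% and 22.8% of all fitted genes. *Clec4n*, which encodes dectin-2, rose from 106.7, 134 and 31.6 RPKM to 1353, 1599 and 2215 RPKM, while *Clec4e*, the mycobacterial glycolipid receptor Mincle, fell from 735, 373 and 182 RPKM to 18.4, 23.8 and 24.1 RPKM. Of 15 matrix protease and protease inhibitor genes, 5 rose and 1 fell, against the same shares of all fitted genes, where 8 rose without day 0 replicate 1 and 2 fell without day 0 replicate 3. Beside *Mmp12*, the membrane-bound collagenase *Mmp14* rose from 4.57, 1.71 and 0.508 RPKM to 79.3, 114.1 and 100 RPKM. Of 15 integrin chains, 5 rose and 5 fell, against 20.3% and 22.8% of all fitted genes, the rises holding both the *Itgax* and *Itgam* chains of the complement receptors and the falls *Itga4* and *Itgb7*, whose products pair for homing to the gut and to inflamed vessels. *Itga4* went from 61.8, 89.3 and 81.1 RPKM to 6.29, 12.7 and 4.29 RPKM and *Itgb7* from 225.03, 273 and 309 RPKM to 73.6, 24.2 and 51.7 RPKM.

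Of 14 Toll-like receptor and adaptor genes, none rose (1 without day 0 replicate 1) and 7 fell, with a median of -0.69. *Cd14*, the co-receptor for lipopolysaccharide, fell from 775, 760 and 449 RPKM to 52.6, 40.3 and 61.6 RPKM and *Tlr2*, which senses lipoproteins, from 370, 412 and 489 RPKM to 69, 45.9 and 73.7 RPKM. *Tlr4*, which recognizes lipopolysaccharide with *Cd14*, did not pass at 43.3, 22 and 16.6 RPKM and then 37.9, 32.3 and 48.3 RPKM. Of 33 interferon-stimulated genes, 12 fell and 4 rose, against 22.8% and 20.3% of all fitted genes. With all 18 libraries in 1 fit, or in limma treat, 6 fell and 2 rose, and 2 also rose without day 0 replicate 1 or 2 or day 3 replicate 1 or 3. The antiviral membrane gene *Ifitm1* rose from 4.16, 9.96 and 3.8 RPKM to 785, 304 and 617 RPKM while its relative *Ifitm3* fell from 714, 1296 and 977 RPKM to 227.7, 72.9 and 338 RPKM. Members of the *Ifitm* family resemble each other, so reads may be split among them. Of 24 immediate early genes, which respond within minutes to many stimuli, 18 fell and 1 rose, with a median of -1.81. Without day 0 replicate 3, 14 fell and 2 rose, and in limma treat 11 fell and none rose. *Fos* fell from 54.3, 264 and 330 RPKM to 11.1, 5.6 and 4.83 RPKM and *Dusp2* from 16.2, 39.5 and 14.7 RPKM to 0.298, 0.657 and 0.826 RPKM. The day 0 libraries differed from each other here, with *Fos*, *Fosb* and *Nr4a1* lowest in replicate 1 and highest in replicate 3. *Egr2* was the member that rose, from 34.4, 29.8 and 62.3 RPKM to 85.4, 90 and 120 RPKM.

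The cell cycle list fell nearly as a whole. Of 48 fitted genes, 45 fell and none rose (1 without day 0 replicate 1), with a median of -1.81 and a summed level of 2630 to 3419 RPKM on day 0 and 987 to 1414 RPKM on day 3. *Mki67*, the Ki-67 proliferation antigen, fell from 118, 119 and 151 RPKM to 19.5, 21.3 and 7.9 RPKM, and *Mcm5*, of the replicative helicase, from 82, 101 and 118 RPKM to 26.4, 18.6 and 7.4 RPKM. Day 3 replicate 3 was the lowest for both. The genes that did not pass were *Ccne1*, *Kif20a* and the inhibitor *Cdkn1a*, which stood at 381, 360 and 172 RPKM and then 444, 593 and 490 RPKM. *Myc*, a driver of growth, rose from 5.33, 9.8 and 13.3 RPKM to 26.1, 17 and 17 RPKM at an adjusted p of 0.0327, a call that was lost in 9 of 17 alternatives, among them the replicate block and the fits without any single library other than day 0 replicate 3. Ribosome biogenesis and MYC target genes showed no such lean, with 8 of 32 higher, 3 lower and a median of 0.06, against 20.3% and 22.8% of all fitted genes. Of 79 ribosomal protein genes, 5 were higher and 1 lower, with a median of 0.01.

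Cholesterol synthesis genes rose. Of 22 fitted genes, 20 rose and none fell, with a median of 2.13, and the summed level went from 286 to 397 RPKM to 1162 to 1369 RPKM. *Hmgcs1*, an early enzyme, rose from 25.2, 18 and 20.2 RPKM to 95.7, 113.3 and 120 RPKM. Genes of later steps rose too: *Sqle*, which oxidizes squalene, from 8.52, 7.41 and 8.91 RPKM to 80.3, 77.8 and 90.2 RPKM, and *Lss*, which closes the sterol rings, from 1.13, 0.937 and 1.63 RPKM to 26.7, 27.6 and 39.2 RPKM. *Srebf2*, the factor that controls these enzymes, rose from 61.5, 51.3 and 49.4 RPKM to 151, 106.02 and 118 RPKM. Another of its targets, *Insig1*, did not pass, with a difference of 0.18. In fatty acid and lipid handling 15 of 30 genes rose and 3 fell, against 20.3% and 22.8% of all fitted genes. In limma treat 10 rose and 1 fell. The desaturases *Scd1*, from 0.148, 0.264 and 0.159 RPKM to 35.8, 13.8 and 83.2 RPKM, and *Scd2*, from 8.56, 8.97 and 14.6 RPKM to 346, 180 and 489 RPKM, were among the rises, and in both genes day 3 replicate 3 was the highest.

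Of 23 genes for glycolysis and glucose transport, 8 rose and 1 fell, against 20.3% and 22.8% of all fitted genes. Under a replicate block 5 rose, and 3 rose in limma treat, which tests against the 1.5-fold limit itself. *Aldoc*, an aldolase, rose from 0.797, 0.625 and 0.812 RPKM to 139, 44.3 and 87.1 RPKM and *Ldha*, lactate dehydrogenase A, from 74.5, 103 and 109 RPKM to 636, 342 and 357 RPKM. The alternative subunit *Ldhb* fell, from 6.58, 11.9 and 13 RPKM to 1.41, 1.81 and 4.44 RPKM. Of 60 subunits of the mitochondrial respiratory chain, *Cox5a* rose and none fell, with a median of 0.06 and a summed level of 6033 to 7841 RPKM before and 7221 to 8521 RPKM after. After rescaling or without day 0 replicate 1, 4 subunits fell. When median centred, or in voom with median-of-ratios scaling, 3 rose and none fell. In arginine and polyamine metabolism, 4 of 12 genes rose and 4 fell (1 in limma treat), against 20.3% and 22.8% of all fitted genes. The transporter *Slc7a2* and the citrulline-recycling enzymes *Ass1* and *Asl* were among the rises. *Nos2*, the inducible nitric oxide synthase, was at 0 to 0.334 RPKM over the 6 libraries and was not fitted.

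Of 51 lysosomal genes, 13 were higher and 5 lower, against 20.3% and 22.8% of all fitted genes. Without day 0 replicate 2 the higher count was 7 and without day 3 replicate 3 it was 8. *Atp6v0d2*, a proton pump subunit of macrophages and osteoclasts, rose from 1.26, 0.67 and 0.319 RPKM to 15.8, 71.9 and 55 RPKM, and *Lamp1*, the major lysosomal membrane protein, fell from 629, 668 and 712 RPKM to 251, 257 and 381 RPKM. Of 22 genes for the antioxidant factor NRF2, iron and heme, 5 rose and 1 fell, the rises being near the 20.3% of all fitted genes, and without day 3 replicate 3 the higher count was 3. *Fth1*, ferritin heavy chain, rose from 2129, 2277 and 1101 RPKM to 4743, 5962 and 10182 RPKM and *Nqo1*, an NRF2 target, from 1.04, 4.84 and 0.752 RPKM to 7.11, 56.9 and 61.7 RPKM, where day 3 replicate 1 was the lowest for both. *Nqo1* lost its call in both voom fits and without day 3 replicate 3.

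**Figure D3:**
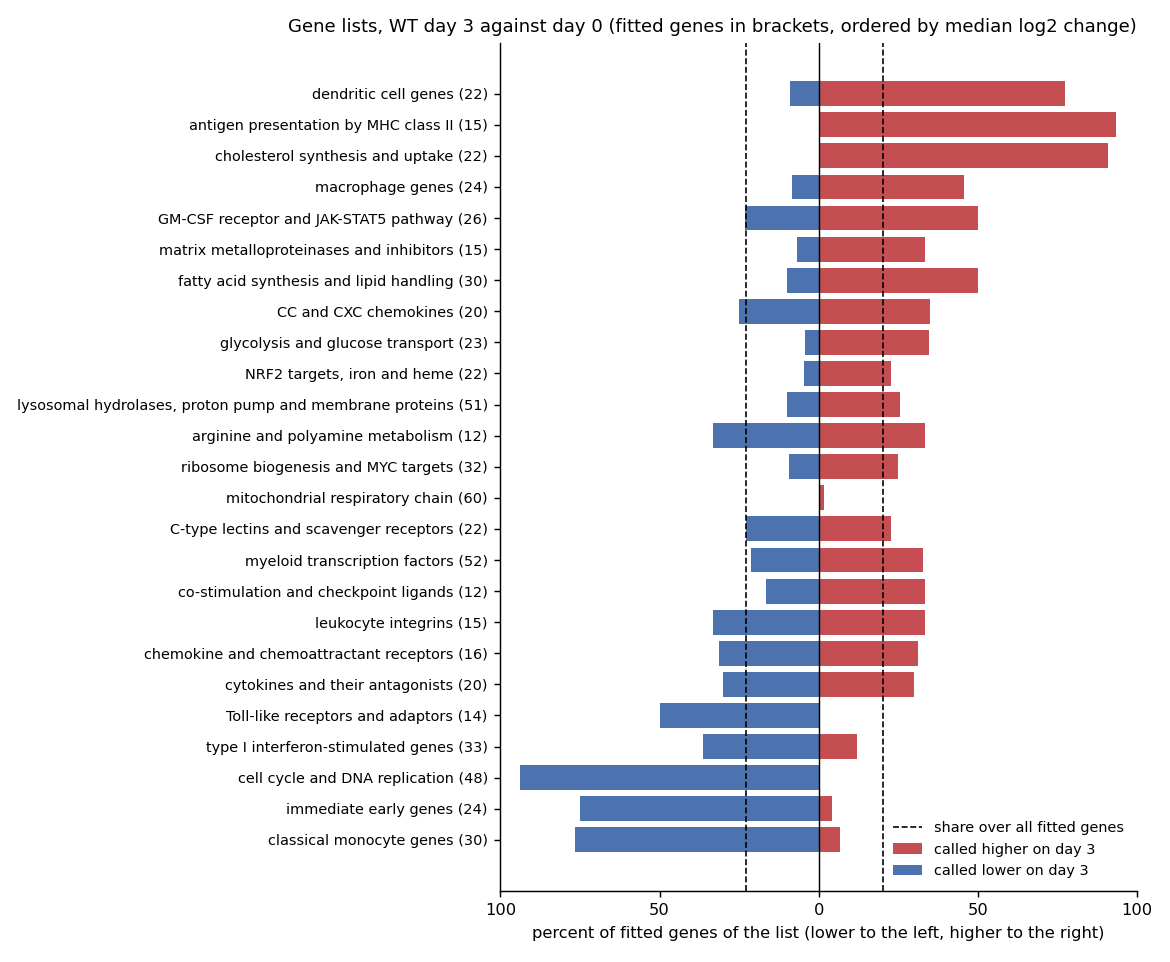
Percent of the fitted genes of each list that were called higher (red, to the right) or lower (blue, to the left) on WT day 3, with the number of fitted genes in brackets, lists ordered by median log2 change and dashed lines at the shares over all fitted genes (20.3% and 22.8%). MHC class II, cholesterol synthesis and dendritic cell genes lie at the upper end with 14 of 15, 20 of 22 and 17 of 22 higher, and the classical monocyte, immediate early and cell cycle lists at the lower end.

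Genes of cells other than monocytes also differed between the days, beside all the groups above. Their part in the results was not tested. Of 15 primary granule and progenitor genes, 11 fell and 2 rose (1 without any single day 0 library or without day 3 replicate 2 or 3), and the summed level went from 863 to 1645 RPKM to 106.25 to 319 RPKM. *Mpo*, the myeloperoxidase of granulocyte precursors, stood at 176, 346 and 361 RPKM before GM-CSF and 0.156, 6.57 and 0.0489 RPKM after. *Elane*, neutrophil elastase, stood at 216, 373 and 397 RPKM and then 0.709, 20.4 and 0.101 RPKM, so that replicate 2 held most of what remained. The secondary granule and mature neutrophil list fell in 5 of 19 genes and rose in 3, near the 22.8% and 20.3% of all fitted genes, with summed levels of 12864 to 17816 RPKM and 2888 to 5726 RPKM. *Lyz2*, also counted with the classical monocyte genes, made up most of the day 0 sums, so these sums do not show how the other members of the list moved. There too replicate 2 stood apart: *S100a8* was at 1366, 1496 and 599 RPKM on day 0 and 81.9, 2192 and 153 RPKM on day 3, and without that library 10 members of the list fell. The genes called over the whole table without it were 1769 higher and 2143 lower. The eosinophil granule gene *Prg2* fell from 168.9, 433 and 267 RPKM to 1.52, 20.4 and 0.705 RPKM, and 6 of 8 eosinophil genes fell and 2 rose.

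Some genes of lymphoid, stromal and blood cells differed as well. Of 140 immunoglobulin segments fitted, 103 fell and none rose, *Igkc* going from 368, 1492 and 546 RPKM to 12.8, 19.3 and 6.41 RPKM. Of 8 fitted B and plasma cell genes 6 fell (2 after rescaling, which drops immunoglobulin segments), and 10 of the 19 measured had a day 3 mean under 0.1 RPKM. Of 4 fitted T and NK cell genes 1 rose (*Ccl5*) and 1 fell, near the 20.3% and 22.8% of all fitted genes. Without day 3 replicate 2, 2 rose, and without day 0 replicate 3, 2 fell. *Cd3d*, *Cd3e*, *Cd4* and *Cd8a* were not above 2 RPKM on either day. Of 9 stromal genes 7 fell, with a summed level of 46.9 to 91.1 RPKM on day 0 and 4.27 to 12.3 RPKM on day 3. *Col1a1*, the main bone collagen, went from 16, 31.1 and 13.5 RPKM to 0.181, 0.0677 and 0.0594 RPKM. Of 11 erythroid and megakaryocyte genes 8 fell, *Hba-a2*, alpha globin, from 7.23, 14.7 and 3.82 RPKM to being listed at 0 in all day 3 libraries, and 1 rose (*Car2*). Of 6 basophil and mast cell genes 2 rose and 1 fell, *Gata2* going up from 2.39, 3.3 and 2.68 RPKM to 28.6, 24.7 and 30.4 RPKM. The fall of the basophil protease *Prss34* was lost in 8 of 17 alternatives, among them both voom fits and the fits without day 0 replicate 1 or 2 or day 3 replicate 1 or 3. Other alternatives went the other way: 2 members fell under the replicate block, with all 18 libraries in 1 fit and without day 3 replicate 2, and 3 fell without day 0 replicate 3. Of 5 plasmacytoid dendritic cell genes 2 rose and 1 fell, against 20.3% and 22.8% of all fitted genes. The rise of *Bst2* was lost in 10 of 17 alternatives, among them the fits without any single library other than day 3 replicate 2. The endocytic adaptor *Pacsin1* rose from 0.00557, 0.0221 and 0.0216 RPKM to 8.96, 7.06 and 8.17 RPKM.

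**Figure D4:**
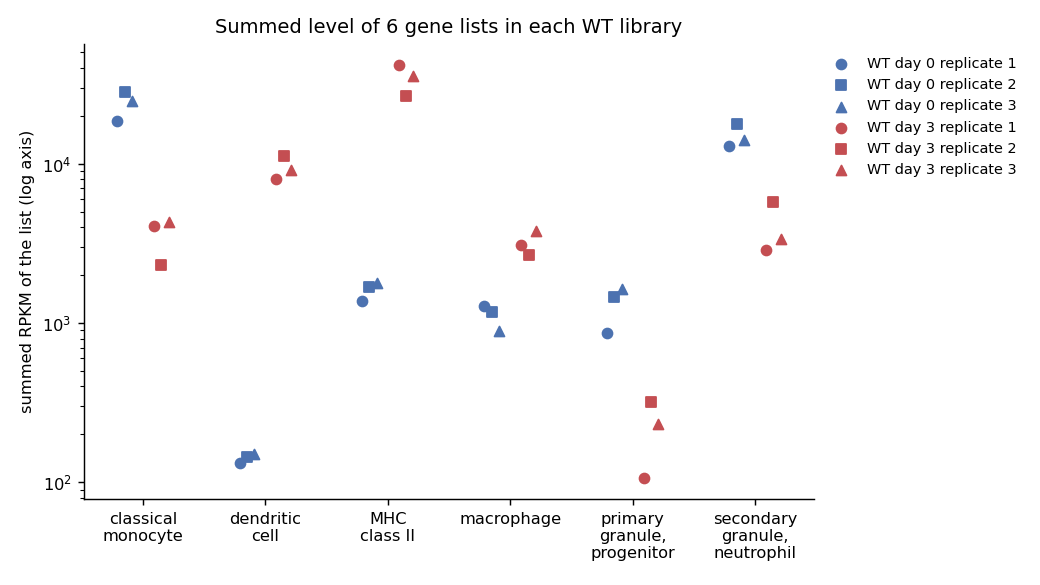
Summed RPKM, on a log axis, of 6 gene lists in each WT library, with day 0 in blue, day 3 in red and a marker shape per replicate number. The classical monocyte and both granulocyte lists are lower in all day 3 libraries and the dendritic cell, MHC class II and macrophage lists higher, with day 3 replicate 2 the highest of its group for both granulocyte lists (319 and 5726 RPKM) and the lowest for MHC class II (26427 RPKM). *Lyz2* is counted in both the classical monocyte and the secondary granule sums and makes up most of the latter on day 0.

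How the WT change compared with that of cells unable to form STAT5 tetramers was read from the difference between the WT change and the DKI change, which share no library. The median difference over all fitted genes was 0.11, and 0.0033 in voom with median-of-ratios scaling. Of 10212 genes fitted over the 12 libraries, the signed difference, WT change minus DKI change, was called positive for 174 (1.7%) and negative for 123 (1.2%), 2.91% in all, with 1606 genes at an unadjusted p under 0.05. WT and DKI libraries of the same day and number deviated together, and with that block the counts were 570 and 470, with 292 genes called the same way in both fits. In voom on recovered reads they were 37 and 54, and 40.7% of the calls were upward where limma gave 58.6%. A positive value means a larger rise or a smaller fall in WT, or a rise in WT beside a fall in DKI, and a negative value the reverse.

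Among the genes that rose further in WT than in DKI were *Ccl17*, *Hepacam2*, *Itgae*, *Il2ra*, *Tnfrsf9* and *Lta*. *Ccl17*, at 3473 to 5758 RPKM in WT, reached 12.5, 42.2 and 68 RPKM in DKI cells on day 3, a difference of 7.29 ± 0.81 (adjusted p = 0.00142). *Itgae* reached 35 to 47.1 RPKM in WT and 0.195, 0.678 and 0.119 RPKM in DKI, and the DKI change was 0.26. *Hepacam2*, an immunoglobulin-like adhesion gene, rose in WT from 0.0213, 0.159 and 0.165 RPKM to 100, 55.3 and 57.1 RPKM and stood at 0.569, 1.1 and 1.69 RPKM in DKI cells on day 3. *Lta* behaved alike, at 20.6 to 39.7 RPKM in WT and 0.221, 0.239 and 0.0929 RPKM in DKI. *Itgae*, *Hepacam2* and *Lta* were at 0 to 0.26 RPKM in all day 0 libraries of both genotypes. *Tnfrsf9*, which encodes the activation receptor CD137, rose in WT from 0.204, 0.192 and 0.0968 RPKM to 177, 227.2 and 87.6 RPKM and in DKI to 16.9, 4.55 and 1.04 RPKM.

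Within the JAK-STAT5 list, 5 of 26 genes differed (9 with the block), all with a positive value, where 1.7% of all fitted genes were called positive. *Socs2* reached 82 to 121 RPKM in WT and 6.11, 3.61 and 4.84 RPKM in DKI (4.23 ± 0.26), and *Il2ra* 75 to 173 RPKM in WT and 1.82, 1.3 and 7.04 RPKM in DKI. *Jak2* itself, at 289 to 321 RPKM in WT, was at 62.5, 65.3 and 82.4 RPKM in DKI cells on day 3 against 62.1, 54.2 and 35.4 RPKM on day 0. *Stat5a* stood at 30.2 to 58 RPKM in WT and 9.37, 13.4 and 14.4 RPKM in DKI. *Bcl6*, which fell in WT to 16.9 to 27.5 RPKM, stood in DKI at 70.5, 64 and 50.3 RPKM on day 0 and on day 3 at 7.01, 5.76 and 6.32 RPKM. *Cish* reached 28.3, 35.2 and 51 RPKM in DKI, and its difference of 2.23 was called only with the replicate block (adjusted p = 0.109 without it and 0.00638 with it). The block likewise decided *Irf4*, *Cd209a*, *Pdcd1lg2* and *Ccnd2*, all with a positive difference, and *C1qa*, *C1qc* and *Zeb2*, with a negative one.

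Other genes had a negative difference. *Apoe*, which fell in WT, reached 7177, 440 and 1205 RPKM in DKI cells from 92.6, 126 and 115.3 RPKM, a difference of -8.25 ± 1.40. *Ccl7* reached 1023, 677 and 182 RPKM in DKI against 0.854 to 8.49 RPKM in WT. *Ccl12* and *Retnla*, a resistin-like gene of alternatively activated macrophages, differed by -5.76 and -6.02. These are macrophage or monocyte-recruiting products, and their DKI libraries varied widely among themselves. Among 27 macrophage genes fitted here 7 were called negative and none positive (17 and 1 with the block, *Axl* being the positive one), while among 22 dendritic cell genes 8 were called positive and none negative (12 and 0 with the block). Over all 10212 fitted genes, 1.2% were called negative and 1.7% positive, and with the block 470 genes and 570 genes. None of the 48 cell cycle, 22 cholesterol or 24 immediate early genes was called in the difference without the block (1, 2 and 4 with it). As only 2.91% of all fitted genes were called, this does not show that they changed alike.

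**Figure D5:**
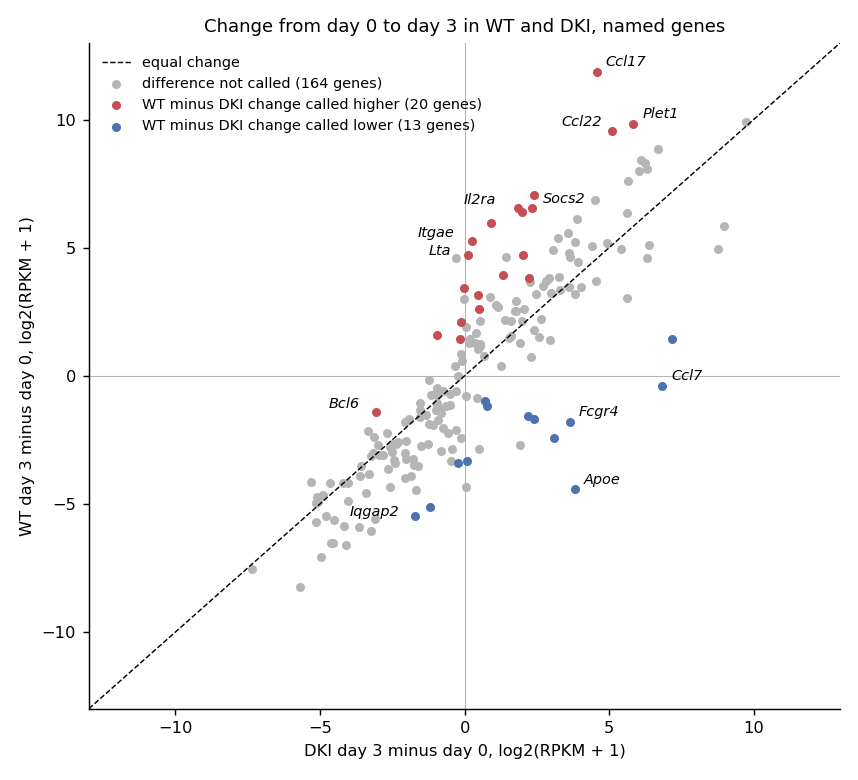
Change from day 0 to day 3 on the log2(RPKM + 1) scale in DKI (horizontal) and WT (vertical) for 197 named genes, with the dashed line at equal change, 20 genes called higher in the WT minus DKI difference in red, 13 called lower in blue and the rest, not called, in grey. *Ccl17* and *Itgae* lie above the line and *Apoe* and *Ccl7* below it.

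Few differences passed between the later days, which does not show that the values were equal. Between WT day 3 and day 6, which share the day 3 libraries with the comparison above, limma called 0 of 9613 fitted genes in either direction (0.0%), with 722 at an unadjusted p under 0.05, and voom also called 0. *Ccl17* stood at 3607, 1871 and 6080 RPKM on day 6, *Cd74* at 20447, 10378 and 12840 RPKM and *Mki67* at 11.2, 25.2 and 11.6 RPKM, each overlapping its day 3 values. *Ly6c2* was at 13.1, 12.8 and 8.66 RPKM and *Cish* at 189, 151 and 186 RPKM. Some genes had day 6 values outside the day 3 range without passing: *Ccr7* at 456, 296 and 824 RPKM and *Ccl5* at 1020, 1206 and 2285 RPKM were above all 3 day 3 libraries. With all 18 libraries in 1 fit, which shares the estimate of the spread, 16 genes were called higher on day 6 and none lower.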

How the data were processed

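RNA-seq values were deposited by the authors as RPKM (reads per kilobase of gene, scaled to library size) for 20298 mouse genes in 18 libraries. Per the labels and the methods of the study, reads were aligned to mm10 with Subread and counted per gene with featureCounts, versions not given in the sources used here, and the authors tested groups with edgeR. The deposited table holds no columns of comparisons. Libraries were grouped by their labels.

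RPKM values were analysed as log2(RPKM + 1) with limma 3.58.1 (lmFit, eBayes with trend, two-sided) in R 4.3.3, for genes with a mean above 2 RPKM in any group compared. Genes were called at a Benjamini-Hochberg adjusted p under 0.05 over all fitted genes and a fold change above 1.5. Adjusted p-values in the text are from these fits. Tables and plots were made with Python 3.11.15, numpy 2.4.6, pandas 2.3.3 and matplotlib 3.10.9. The fits were tested on simulated data.

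Low values were whole multiples of the value of 1 read. Whole reads were recovered for 100% of 17013 genes above 0, within 0.01 reads, and gave the library totals of 32160391 to 42317549 reads in the 6 WT libraries of days 0 and 3. Limma voom on these reads was added after seeing the data. Intervals between libraries cover these libraries only.

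WT and DKI libraries of 1 day and number deviated together, with correlations of deviations of 0.87, 0.69 and 0.84 on day 0 and 0.16, 0.37 and 0.25 on day 3, and a fit with replicate number within day as a block was therefore added. WT day 3 and day 6 libraries did so as well (0.68, 0.29 and 0.12), and the block left the count of calls at 0.

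Named were the 10 largest rises and falls with groups apart, outside immunoglobulin segments and other cell types, up to 4 called members per direction of each of 35 gene lists, a short list of pathway and lineage genes whether called or not, and the 5 largest genotype differences per direction. Further list members named for their values, most of them not called, were chosen after those values were seen. The genes studied and the lists were chosen with earlier results of these data known. Gene positions and promoter sequences were from RefSeq GRCm38.p6, in which 20082 of the gene identifiers were found. Genes with near-identical copies (*Ly6c1* and *Ly6c2*, *Csf2rb* and *Csf2rb2*, the *Ear* and *Ifitm* families) are uncertain, since counting may split their reads. Results on some genes are not reported here.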

Additional observations from a re-analysis of the deposited data

Results flagged for a closer look

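The changes of 34 named genes from day 0 to day 3 differed between WT and DKI cells by the limma test of the difference itself, where 2.91% of all 10212 fitted genes did. Many named genes were picked for this difference or for a large WT change in the same libraries, so their number cannot be read against that share. Each value below is the WT change minus the DKI change on the log2(RPKM + 1) scale, and all 34 were also called with the replicate block within day. That fit called more genes over the whole table (570 positive and 470 negative), whereas voom (37 and 54) and limma treat (53 and 38) called fewer. The calls of the 34 genes in voom and treat are not given here.

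A positive value means a larger rise or a smaller fall in WT, or a rise in WT beside a fall in DKI, as for *Cd80*. It was found for the chemokines *Ccl17* (7.29) and *Ccl22* (4.45) and the chemokine receptor *Ccr7* (4.4). Cytokine and co-stimulatory genes with a positive value were *Lta* (4.59), *Ltb* (1.60), *Tnfsf4* (2.70), *Tnfrsf9* (4.63) and *Cd80* (2.57). In the JAK-STAT5 list they were *Il2ra* (4.72), *Socs2* (4.23), *Jak2* (2.11), *Stat5a* (1.60) and *Bcl6* (1.66), the last of which fell in WT, and fell less there than in DKI. The transcription factors *Vdr* (2.63) and *Mycl* (3.47) had a positive value, and so did the surface and adhesion genes *Plet1* (4.0), *Itgae* (5.02) and *Hepacam2* (5.05). The endocytic adaptor *Pacsin1* (2.69) and the glycolytic *Pfkp* (2.23) completed the direction.

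A negative value means the reverse, and *Ccl2*, *C5ar1*, *Apoe*, *Fcgr4* and *Tnfsf14* went down in WT and up in DKI. It was found for the monocyte attractants *Ccl2* (-5.53), *Ccl7* (-7.22) and *Ccl12* (-5.76) and the complement receptor *C5ar1* (-4.09). Macrophage genes in this direction were *Apoe* (-8.25), *Fcgr4* (-5.44) and *Retnla* (-6.02). The others were *Iqgap2* (-3.76), *Ms4a6c* (-3.94), *Tnfsf14* (-3.78), *Cd93* (-3.42), *Csf3r* (-3.20), *Lamp1* (-1.96) and *Lair1* (-1.71). *Ccl7* was not called in the WT change itself, *Ccl12* was called there only with a pseudocount of 0.1, after rescaling and in both voom fits (higher, 2.15 to 5.36), and *Retnla* was not fitted there.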

How the results depend on the processing

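The WT counts of 2013 genes higher and 2270 lower on day 3 stayed within 1.5 times under every alternative but 1. Against a fold of 1.5 as the null (limma treat) they were 944 and 959. Leaving out each library gave 1640 to 2123 higher and 1723 to 2309 lower. Rescaling RPKM to a common sum per library without immunoglobulin segments gave 1752 and 2720. A replicate block gave 1781 and 2007. Same-numbered day 0 and day 3 libraries did not deviate together (correlations of -0.21, 0.0024 and -0.04). With 3 libraries per group this cannot show whether they came from 1 experiment, and the library names of replicate 3 are numbered close together on both days. Among uncalled genes, *Spi1* turned to 0.079 when median centred and 0.031 in voom with median-of-ratios scaling. Without single libraries it ranged from -0.13 to 0.083, *Cd86* from -0.89 to 0.28 and *Ccl7* from -1.15 to 0.21, each crossing 0. Of 201 named genes, 30 lost their call with treat, 13 without the filter and 16 without day 3 replicate 3, the most for a single library.

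The genotype difference depended more on the fit. Its 174 higher and 123 lower became 53 and 38 with treat, 37 and 54 with voom, 40 and 62 with voom and median-of-ratios scaling, and 570 and 470 with the replicate block within day. Without the filter 81 were lower. Leaving out libraries gave 73 to 193 higher and 52 to 158 lower. The cause was not tested. For WT day 6 against day 3, 16 genes were higher with all 18 libraries in 1 fit and 1 without WT day 6 replicate 2 (0 to 1 over single libraries left out). Depth limits genes near 0.1 RPKM, where a library holds few reads.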
